A study of Mus musculus with 21 samples.

Results

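The transcripts described here are those of 10 genes of the transforming growth factor beta (TGF-beta) pathway in mouse liver and liver tumours. They are the ligands Tgfb1, Tgfb2, Tgfb3 and Inhba, the matrix protein Ltbp2, the receptors Tgfbr1 and Tgfbr2, the signal transducers Smad3 and Smad7, and the secreted protein Tgfbi. A gene was included when a non-control probe of the array carried its name, which gave 16 of 39429 probes and 10 of 30161 gene names. Dim probes, those well above background on fewer than 4 of the 21 arrays, were left out. All 10 genes and 15 of the 16 probes remained, and 23526 genes were tested in all. The study set 4 groups side by side, all on a C57BL/6J background. The DEN tumours (7 tumours of 5 mice, labelled hepatocellular carcinoma) grew in Trp53 wild-type mice that had been injected on day 15 with N-nitrosodiethylamine (DEN), a liver carcinogen, at 10 µg for each g of body weight. The KO tumours (6 tumours of 5 mice) came from Trp53 knockout mice that received no DEN, and their label names hepatocellular and cholangiocellular carcinoma together. The KO livers (4 mice) and wild-type (WT) livers (4 mice) came from mice of the same 2 genotypes without DEN. The sources used here do not give the cells in which Trp53 was deleted, the deleted exons, the sexes or the ages.

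TGF-beta ligands are secreted in a latent form, bound to their own propeptide and held in the matrix by latent TGF-beta binding proteins, from which integrins, thrombospondin or proteases release them. The free ligand joins a type II receptor to a type I receptor, which phosphorylates Smad2 and Smad3. These enter the nucleus with Smad4 and switch on target genes, among them the inhibitory Smad7, which limits the signal. In liver the pathway is best known for stopping the division of hepatocytes and for driving stellate cells to lay down matrix, and in bile duct tumours for a dense stroma. Activins, dimers of the Inhba or Inhbb product, signal through receptors of their own to the same Smads.

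The probes decide what each value reads, so the sequences of those on which a result below turns are shown first, 5′ to 3′, as the array files give them, in build mm9. The probes for Tgfb1 (chr7:26489877-26489936, + strand) and for Tgfb2 (chr1:188449333-188449392, - strand, the second probe of this gene) lie in the same stretch of the mature ligand. Their capitals mark the 41 bases that align without a gap, of which 28 (68.3%) are identical. The Inhba probe (chr13:16118634-16118693, + strand) reads the part that encodes the activin subunit. The second Tgfbr2 probe (chr9:115999496-115999555, - strand) ends on the stop codon of the receptor, in capitals, while the brighter Tgfbr2 probe (chr9:115997155-115997214) lies further downstream on the same strand. Exons and untranslated regions were not assigned, since no annotation of mm9 was used here.
Tgfb1, probe A_51_P390715: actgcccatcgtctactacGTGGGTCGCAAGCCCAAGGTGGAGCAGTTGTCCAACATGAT
Tgfb2, probe A_65_P10913: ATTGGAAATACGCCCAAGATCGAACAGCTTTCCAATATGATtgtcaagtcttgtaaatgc
Inhba, probe A_51_P239750: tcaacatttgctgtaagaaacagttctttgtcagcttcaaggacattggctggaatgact
Tgfbr2, probe A_55_P2107288: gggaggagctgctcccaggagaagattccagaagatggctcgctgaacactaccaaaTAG

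A level below is the log2 of a probe's signal relative to the 75th percentile of its array, so that 0 is the signal of that percentile and -1 is 1 doubling below it. Levels of different genes are not set against each other, because probes differ in brightness. Tumours of 1 mouse were averaged, and the main tests are limma's moderated tests over 18 mice. They were adjusted by Benjamini-Hochberg over the 23526 genes with a threshold of 0.05. The labels do not say whether mice of a group were littermates, and p-values of the main tests measure the spread between these mice. Fits with slide or scan day as a block took each array as a sample, since some DEN mice had tumours on different slides. Those fits held no term for mouse, so tumours of the same mouse counted there as separate samples. In bulk tissue, fewer cells of a type and less RNA per cell cannot be told apart.

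Trp53, the deleted gene, was lowest in the KO groups, at -5.57 ± 0.75 in KO livers (SD, n = 4) and -4.71 ± 0.47 in KO tumours (n = 5), against -3.57 ± 0.26 in WT livers (n = 4) and -2.65 ± 0.11 in DEN tumours (n = 5). Its probe was well above background on 1 of 4 KO liver and 5 of 6 KO tumour arrays, and whether it lies in the deleted part is not known. The 75th percentile was 476 to 4258 intensity units and 51.0% to 82.3% of probes per array were well above background. The median gene stood at -0.33 in KO against DEN tumours and -0.22 in KO tumours against KO livers, and changes are to be read relative to these shifts. With normexp background correction and quantile normalization together, both medians were close to 0 (-0.04 and -0.01), and 52.9% of the calls in KO against DEN tumours were lower in place of 65.4%. Summed over their lists, hepatocyte markers gave 389 to 836 times the 75th percentile in KO tumours and 1657 to 2333 in DEN tumours, and bile duct markers 54.9 to 259 in KO tumours and 21.5 to 47.8 in DEN tumours. Each slide held 1 group, and scan day 1 held 3 of the 7 DEN tumours (of 3 mice), all KO livers and 3 of the 5 KO tumour mice, while the other 4 DEN tumours shared a slide on day 2. WT livers were scanned alone on a day of their own, so in comparisons with them slide or day and group cannot be told apart. On scan day 1 each group was on 1 slide, so within that day slide and group cannot be told apart either. KO tumour mice 4 and 5 were on a brighter slide of their own, scanned on day 3.

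All 3 TGF-beta ligands were highest in KO tumours. Tgfb1, the most widely expressed isoform and a product of macrophages, platelets and stroma, had levels of -0.28, -0.55, -0.96, -1.90 and -0.93 in KO tumour mice 1 to 5. In DEN tumour mice 1 to 5 Tgfb1 stood at -2.52, -1.94, -2.78, -2.30 and -2.55. In the 4 KO livers Tgfb1 was -2.87, -2.96, -3.49 and -2.90, and in the 4 WT livers -3.44, -3.14, -3.18 and -2.89. Every KO tumour mouse was above every DEN tumour mouse, with KO mouse 4 and DEN mouse 2 close together, and the livers overlapped with each other. Tgfb1 was 2.82-fold higher in KO than in DEN tumours (log2 1.50 ± 0.26 SE, limma adjusted p = 0.00017) and 4.38-fold higher than in KO livers (2.13 ± 0.28, limma adjusted p = 8.2e-06). In DEN tumours against WT livers the difference was 0.74 ± 0.28 and missed the threshold (limma adjusted p = 0.065), although no DEN tumour mouse overlapped with a WT liver. It passed without KO tumour mouse 1 or 4 (limma adjusted p = 0.048 and 0.018) or both mice of the bright slide (limma adjusted p = 0.015), which only changes the shared estimate of spread. The Tgfb1 probe is printed 10 times on each array, and its spots had a median SD of 0.0781, small beside the SD of 0.62 between KO tumour mice.

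Tgfb2, an isoform made by epithelium and best known from development and bile duct cells, showed the clearest steps between groups. Its brighter probe read -0.84, -0.20, -0.24, 0.39 and -0.74 in KO tumour mice 1 to 5 and -2.15, -1.91, -2.39, -3.09 and -2.95 in DEN tumour mice 1 to 5. In KO livers this Tgfb2 probe read -4.55, -4.88, -4.23 and -5.05, and in WT livers -5.22, -3.66, -5.88 and -5.30, values that were well above background on 3 of 4 KO liver arrays and 1 of 4 WT liver arrays. The mice thus formed 3 separate ranges, with KO tumours on top, DEN tumours in the middle and both kinds of liver together at the bottom. Tgfb2 rose 4.51-fold in KO over DEN tumours (2.17 ± 0.37, limma adjusted p = 0.00013), by 4.35 ± 0.39 in KO tumours over KO livers (limma adjusted p = 2.5e-07) and by 2.52 ± 0.39 in DEN tumours over WT livers (limma adjusted p = 0.00027). The last size rests on 1 WT liver with a signal well above background, and its call is lost when slide is a random block (2.37, limma adjusted p = 0.068). Summed bile duct markers lay in the same order of groups, with KO livers at 5.41 to 8.32 and WT livers at 2.10 to 3.73 beside the tumour values above. Singly, 7 of the 10 were higher and 0 lower in KO against DEN tumours (19.9% and 37.5% of all genes). In DEN tumours against WT livers 4 were higher and 1 lower (10.6% and 11.0% of all genes). In KO against WT livers 1 was higher and 2 were lower (1.83% and 6.66%), so the order of the sums did not hold for each marker. Of these 10 markers, Krt7 was among those below background on all KO liver arrays, and the part of the markers in the level of Tgfb2 was not tested.

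The second Tgfb2 probe, the one aligned with Tgfb1 above, was not well above background on any of the 8 liver arrays and was above it on all 13 tumour arrays. The tumours were therefore at least 10.4-fold brighter than KO livers for KO tumours (limma adjusted p = 3.8e-06) and at least 3.81-fold brighter than WT livers for DEN tumours (limma adjusted p = 0.0009). In KO over DEN tumours this probe gave 1.91 ± 0.55 (limma adjusted p = 0.0073), with overlap of the mice, since KO tumour mouse 5 read -2.62 and DEN tumour mouse 2 read -2.23.

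Tgfb3, an isoform of stromal cells and of epithelial fusion in development, varied most between mice of a tumour group among the 3 TGF-beta isoforms. It was at 1.42, 0.70, 2.11, -0.37 and 0.88 in KO tumour mice 1 to 5 and at -1.97, 0.54, -1.54, -0.98 and -1.02 in DEN tumour mice 1 to 5. The KO livers lay between -2.65 and -1.87 and the WT livers between -2.81 and -1.90. KO and DEN tumours overlapped through KO mouse 4 and DEN mouse 2, and DEN tumours reached into the range of the livers. Tgfb3 rose by 1.94 ± 0.45 in KO over DEN tumours (limma adjusted p = 0.0016) and by 3.25 ± 0.47 in KO tumours over KO livers (limma adjusted p = 2.7e-05). Within scan day 1 the first of these was 2.98 ± 0.36 (limma adjusted p = 0.00019). In DEN tumours against WT livers the difference of 1.20 ± 0.47 missed the threshold (limma adjusted p = 0.082), but it passed without DEN mouse 1 (1.45, limma adjusted p = 0.042) or without KO tumour mouse 4 (1.20, limma adjusted p = 0.047).

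Inhba, which encodes the beta A subunit of activin, went the other way between the tumours. It read 1.33, 0.24, 0.56, 0.52 and -0.05 in DEN tumour mice 1 to 5 and 0.17, -0.04, -0.98, -1.70 and -1.56 in KO tumour mice 1 to 5. The KO livers had Inhba levels of 0.39, -0.70, -0.93 and -0.66 and the WT livers of -1.01, -0.39, 0.31 and -0.39, so that the tumours overlapped with the livers on both sides. Inhba was lower in KO than in DEN tumours by the fit over all mice (-1.34 ± 0.39, limma adjusted p = 0.0080). KO tumour mice 4 and 5, the lowest of their group, were those on the bright slide, and without them the difference was -0.80 ± 0.39 (limma adjusted p = 0.087), within scan day 1 -0.63 ± 0.54 (limma adjusted p = 0.35). The part of the slide in this result was not tested beyond these values. Neither kind of tumour differed from livers of its genotype past the threshold (KO -0.35 ± 0.42, limma adjusted p = 0.50, and DEN 0.89 ± 0.42, limma adjusted p = 0.14).

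**Figure D1:**
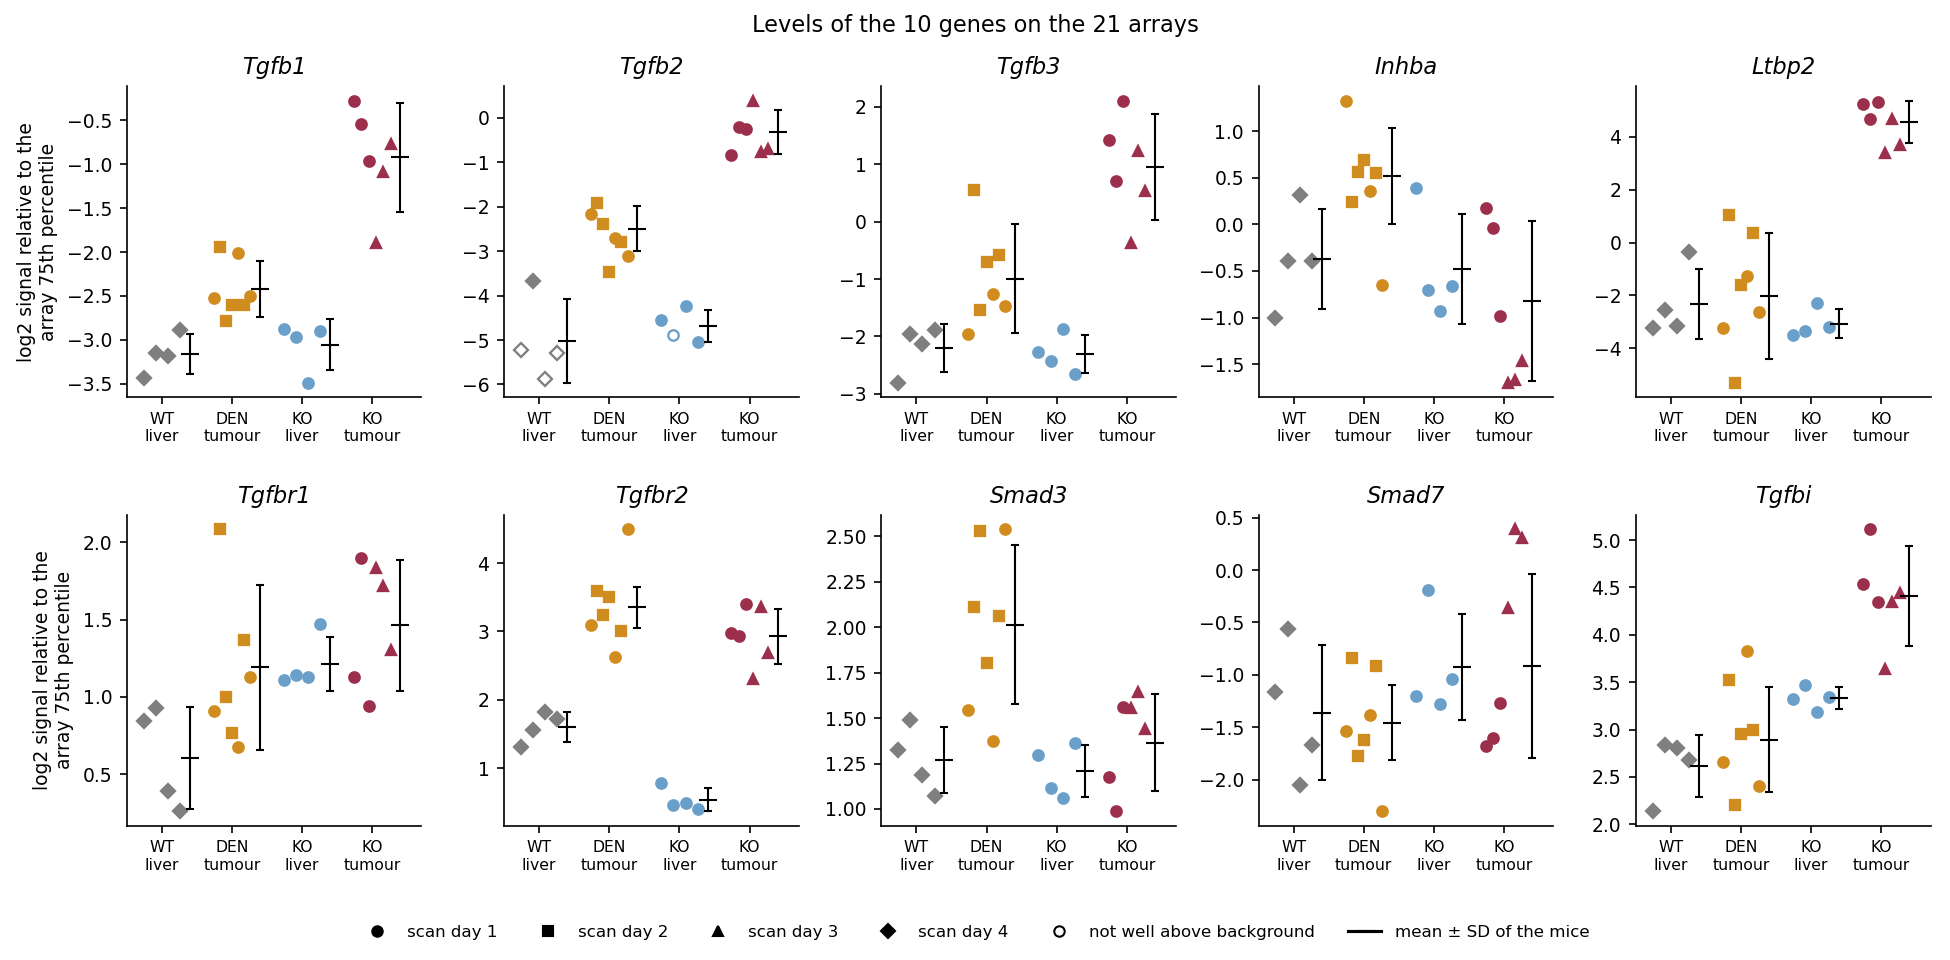
Level of each of the 10 genes on each array (y axis, log2 signal relative to the array's 75th percentile) by group, with 1 point per array, the marker showing the scan day and an open marker a signal not well above background. Bars are the mean ± SD over mice (4 WT livers, 5 DEN tumour mice, 4 KO livers, 5 KO tumour mice). Ltbp2 in KO tumours lies between 3.39 and 5.32 and above all other arrays, Tgfb2 forms 3 ranges, and Tgfbr2 is lowest in KO livers.

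Ltbp2, a matrix protein of elastic fibres that belongs to the latent TGF-beta binding family although it does not itself bind latent TGF-beta, had the largest changes of the 10 genes in both comparisons of KO tumours. It read 5.25, 4.68, 5.32, 3.39 and 4.20 in KO tumour mice 1 to 5. In DEN tumour mice 1 to 5 Ltbp2 read -3.22, 1.03, -5.30, -1.43 and -1.13, a spread (SD 2.38) that no other gene of the 10 reached in any group. In KO livers Ltbp2 was -3.50, -3.33, -2.28 and -3.19 and in WT livers -3.22, -2.53, -3.15 and -0.37. The 5 KO tumour mice were all above the highest mouse of any other group, and the other 3 groups overlapped. Ltbp2 was 95.5-fold higher in KO than in DEN tumours (6.58 ± 0.88, limma adjusted p = 1.8e-05), with a 95% confidence interval of 4.72 to 8.43 on the log2 scale. Over KO livers it was higher by 7.64 ± 0.93 in KO tumours (limma adjusted p = 4.6e-06). DEN tumours and WT livers differed by 0.31 ± 0.93 (limma adjusted p = 0.86), with an interval of -1.66 to 2.27 that leaves room for changes of more than 1 doubling in either direction. The summed signal of stellate and myofibroblast markers was 43.9 to 84.3 in KO tumour mice, 5.44 to 27.5 in DEN tumour mice, 13.1 to 16 in the 4 KO livers and 9.64 to 17.0 in the WT livers. Of these 12 markers, 7 rose and 1, Reln, fell by 2.14 on the log2 scale in KO against DEN tumours, while in KO tumours against KO livers 7 rose and Lrat (-2.55) and Hand2 (-0.97) fell. Over all genes the shares higher and lower were 19.9% and 37.5% in the first comparison and 21.6% and 29.6% in the second. None of the 12 was below background in every sample of a group, and their part in the level of Ltbp2 was not tested. Within scan day 1 the KO tumours stood 7.46 ± 0.50 above DEN tumours (limma adjusted p = 8.9e-06).

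The receptors followed another order. Tgfbr2, the type II receptor that binds the ligand first, was higher in both kinds of tumour than in livers of the same genotype. Its brighter probe read 3.1, 3.59, 3.24, 3.07 and 3.75 in DEN tumour mice 1 to 5 and 2.97, 2.93, 3.41, 2.30 and 3.02 in KO tumour mice 1 to 5. In WT livers this probe read 1.31, 1.56, 1.82 and 1.71 and in KO livers 0.79, 0.46, 0.49 and 0.41. The 2 kinds of tumour overlapped, every tumour mouse was above every liver, and every WT liver was above every KO liver. Tgfbr2 rose by 2.39 ± 0.22 in KO tumours over KO livers (limma adjusted p = 2.9e-07) and by 1.75 ± 0.22 in DEN tumours over WT livers (limma adjusted p = 3.6e-05), the latter lost when slide is a random block (1.77, limma adjusted p = 0.067). It fell by 1.07 ± 0.23 in KO livers against WT livers (limma adjusted p = 0.010), and its second probe gave -1.09 ± 0.25 (limma adjusted p = 0.016). Of the 10 genes it was the 1 called in KO against WT livers, and this call is lost when slide is a random block (limma adjusted p = 0.82) or when tumours enter singly with mouse as a block (limma adjusted p = 0.068).

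The 2 probes of Tgfbr2 did not give the same picture between the tumours. The brighter probe differed by -0.42 ± 0.20 in KO against DEN tumours, which missed the threshold (limma adjusted p = 0.086) but passed without KO tumour mouse 3 (-0.54, limma adjusted p = 0.032). The probe that ends on the stop codon read -2.41, -2.99, -2.44, -3.71 and -2.87 in KO tumour mice 1 to 5 and -1.64, -1.45, -1.74, -1.66 and -1.39 in DEN tumour mice 1 to 5. There the mice did not overlap and the difference was -1.31 ± 0.23 (limma adjusted p = 0.00017). Against KO livers the same probe rose by 1.28 ± 0.24 in KO tumours (limma adjusted p = 0.0003), less than the 2.39 of the brighter probe, and the difference between the probes was not tested.

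**Figure D2:**
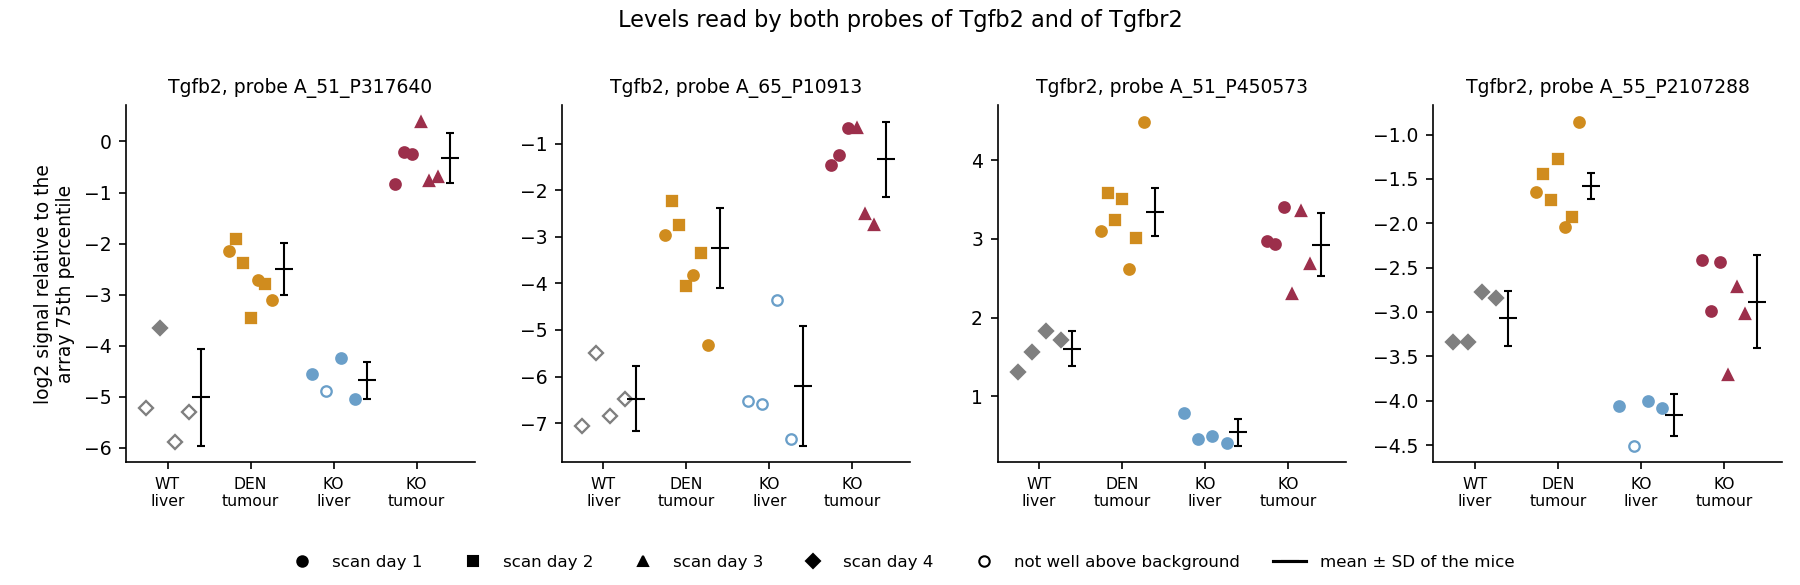
Levels (y axis, log2 signal relative to the array's 75th percentile) of both probes of Tgfb2 and of Tgfbr2 by group, 1 point per array, marker by scan day, open where not well above background, with the mean ± SD over mice. The second Tgfb2 probe has open markers on all 8 liver arrays, and the second Tgfbr2 probe separates DEN tumours (mouse means -1.74 to -1.39) from KO tumours (-3.71 to -2.41), which overlap on the first.

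Tgfbr1, the type I receptor kinase that phosphorylates Smad2 and Smad3, was not called in any comparison by its brightest probe. This probe read 1.13, 1.90, 0.94, 1.83 and 1.51 in KO tumour mice 1 to 5, 0.72 to 2.08 in DEN tumour mice, 1.11 to 1.47 in the KO livers and 0.26 to 0.93 in the WT livers. The WT livers were lowest and did not overlap with the KO livers, but the difference of 0.61 ± 0.29 missed the threshold (limma adjusted p = 0.22). KO and DEN tumours differed by 0.27 ± 0.26 (limma adjusted p = 0.38), with an interval of -0.27 to 0.81. Of the other 3 Tgfbr1 probes, 1 was at background on all 21 arrays, 1 was above it on 7 and 1 on 4. The last of these was above background on 3 of 6 KO tumour arrays and 1 of 7 DEN tumour arrays. It passed the threshold as higher in KO tumours, against DEN tumours (limma adjusted p = 0.00019) and against KO livers (limma adjusted p = 0.0014). Most of its signals were near background, so no size is given for it.

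Smad3, the receptor-activated transcription factor of the pathway, was highest in DEN tumours. It read 1.54, 2.11, 2.53, 1.59 and 2.30 in DEN tumour mice 1 to 5 and 1.17, 0.99, 1.56, 1.56 and 1.54 in KO tumour mice 1 to 5. The KO livers lay between 1.06 and 1.36 and the WT livers between 1.07 and 1.49. By mouse means, DEN tumours were above all WT livers, with DEN mouse 1 and WT liver 2 close together, and the KO tumours overlapped with DEN tumours and with livers. Of the 2 tumours of DEN mouse 4, 1 read 1.37, below WT liver 2. Smad3 was higher in DEN tumours, by 0.75 over WT livers ± 0.21 (limma adjusted p = 0.019) and lower in KO than in DEN tumours by the fit over all mice (-0.65 ± 0.20, limma adjusted p = 0.011). The first call is lost without DEN mouse 3 (0.62, limma adjusted p = 0.050), DEN mouse 5 (0.68, limma adjusted p = 0.051) or WT liver 4 (0.68, limma adjusted p = 0.055). The second is lost within scan day 1 (-0.58 ± 0.30, limma adjusted p = 0.14). With scan day as a block the estimate is the same by design, because days 2 and 3 each held 1 group. Only the estimate of spread differs there (limma adjusted p = 0.075). When slide is a random block both calls are lost (limma adjusted p = 0.38 and 0.13). A dim second Smad3 probe, above background on no liver array and on 10 of 13 tumour arrays, gave 0.05 ± 0.29 between the tumours. In DEN tumours against WT livers it gave -0.24 ± 0.31 (limma adjusted p = 0.63), a value that rests on livers at background. With the mean of both probes the call over WT livers is lost (0.25, limma adjusted p = 0.47).

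Smad7, the inhibitory Smad that the pathway induces against itself, passed the threshold in none of the comparisons. In KO tumour mice 1 to 5 it read -1.68, -1.60, -1.27, -0.37 and 0.35, and in DEN tumour mice 1 to 5 -1.54, -0.84, -1.78, -1.50 and -1.61. The KO livers lay between -1.28 and -0.19 and the WT livers between -2.06 and -0.57. KO tumour mice 4 and 5, on the bright slide, were above all DEN tumour mice, while KO tumour mice 1 to 3 lay within the DEN range. KO and DEN tumours differed by 0.54 ± 0.38 (limma adjusted p = 0.24), with an interval of -0.27 to 1.35, and without the bright slide by -0.06 ± 0.33. KO tumours and KO livers differed by 0.01 ± 0.41, and within scan day 1 by -0.59 ± 0.32 (limma adjusted p = 0.14).

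Tgfbi, a secreted adhesion protein named for its induction by TGF-beta, was highest in KO tumours. It read 4.54, 5.12, 4.34, 3.64 and 4.40 in KO tumour mice 1 to 5 and 2.66, 3.52, 2.20, 3.39 and 2.70 in DEN tumour mice 1 to 5. In KO livers Tgfbi was 3.32, 3.47, 3.18 and 3.34 and in WT livers 2.14, 2.83, 2.80 and 2.68. By mouse means, KO tumour mice were above all mice of the other groups, and the KO livers were above the WT livers without overlap. Of the 2 tumours of DEN mouse 4, 1 read 3.83, above KO tumour mouse 4. Tgfbi rose 2.85-fold in KO over DEN tumours (1.51 ± 0.28, limma adjusted p = 0.00025) and 2.11-fold in KO tumours over KO livers (1.08 ± 0.29, limma adjusted p = 0.0055), and the second of these was lost when slide was a random block (limma adjusted p = 0.12). DEN tumours and WT livers differed by 0.28 ± 0.29 (limma adjusted p = 0.55), and KO and WT livers by 0.72 ± 0.31 (limma adjusted p = 0.17). Macrophages, a known source of Tgfbi, had summed markers of 82.1 to 283 in KO tumours, 64.0 to 119 in DEN tumours, 66.2 to 84.7 for the KO livers and 44.4 to 57.1 for the WT livers, and all 12 were above background in every group on at least 1 array. They went both ways: 6 were higher and 1 lower in KO against DEN tumours, and 8 rose and 4 fell in KO tumours against KO livers, among the latter Clec4f (-4.67), Vsig4 (-3.45) and Timd4 (-3.02), markers of resident macrophages. Over all genes 19.9% were higher and 37.5% lower in the first of these comparisons, and 21.6% and 29.6% in the second. The 4 markers that fell in the second thus lie near the background. The part of macrophages in the levels of Tgfbi was not tested.

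Counted over the 10 genes, KO against DEN tumours gave 7 calls, 5 higher (Tgfb1, Tgfb2, Tgfb3, Ltbp2 and Tgfbi) and 2 lower (Inhba and Smad3). Among all genes 57.4% were called in this comparison, 19.9% higher and 37.5% lower. KO tumours against KO livers gave 6 calls, all higher (Tgfb1, Tgfb2, Tgfb3, Ltbp2, Tgfbr2 and Tgfbi), where 51.1% of all genes were called, 21.6% higher and 29.6% lower. DEN tumours against WT livers gave 3, all higher (Tgfb2, Tgfbr2 and Smad3), against 21.6% of all genes called and 10.6% higher. KO against WT livers gave 1, Tgfbr2 lower, where 8.50% of all genes were called and 6.66% were lower. The mice did not overlap for 4 of the 10 genes in KO against DEN tumours (31.7% of all genes), 6 in KO tumours against KO livers (42.8%), 4 in DEN tumours against WT livers (24.0%) and 3 in KO against WT livers (28.1%). The median log2 change of the 10 genes was 1.02 in KO against DEN tumours (all genes -0.33), 1.60 in KO tumours against KO livers (all genes -0.22), 0.74 in DEN tumours against WT livers (all genes 0.04) and 0.02 in KO against WT livers (all genes -0.05). The total of 7 calls lies near the share of all genes and is read no further. Within scan day 1, KO tumours stood above DEN tumours by 1.75 for Tgfb1, 2.23 for Tgfb2 and 1.70 for Tgfbi, all past the threshold. On the same day they stood above KO livers by 2.46 for Tgfb1, 4.25 for Tgfb2, 8.16 for Ltbp2 and 2.57 for Tgfbr2, also past it. Each group was on 1 slide that day, so these values do not separate slide from group. These comparisons share groups, so their counts are not independent of each other.

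**Figure D3:**
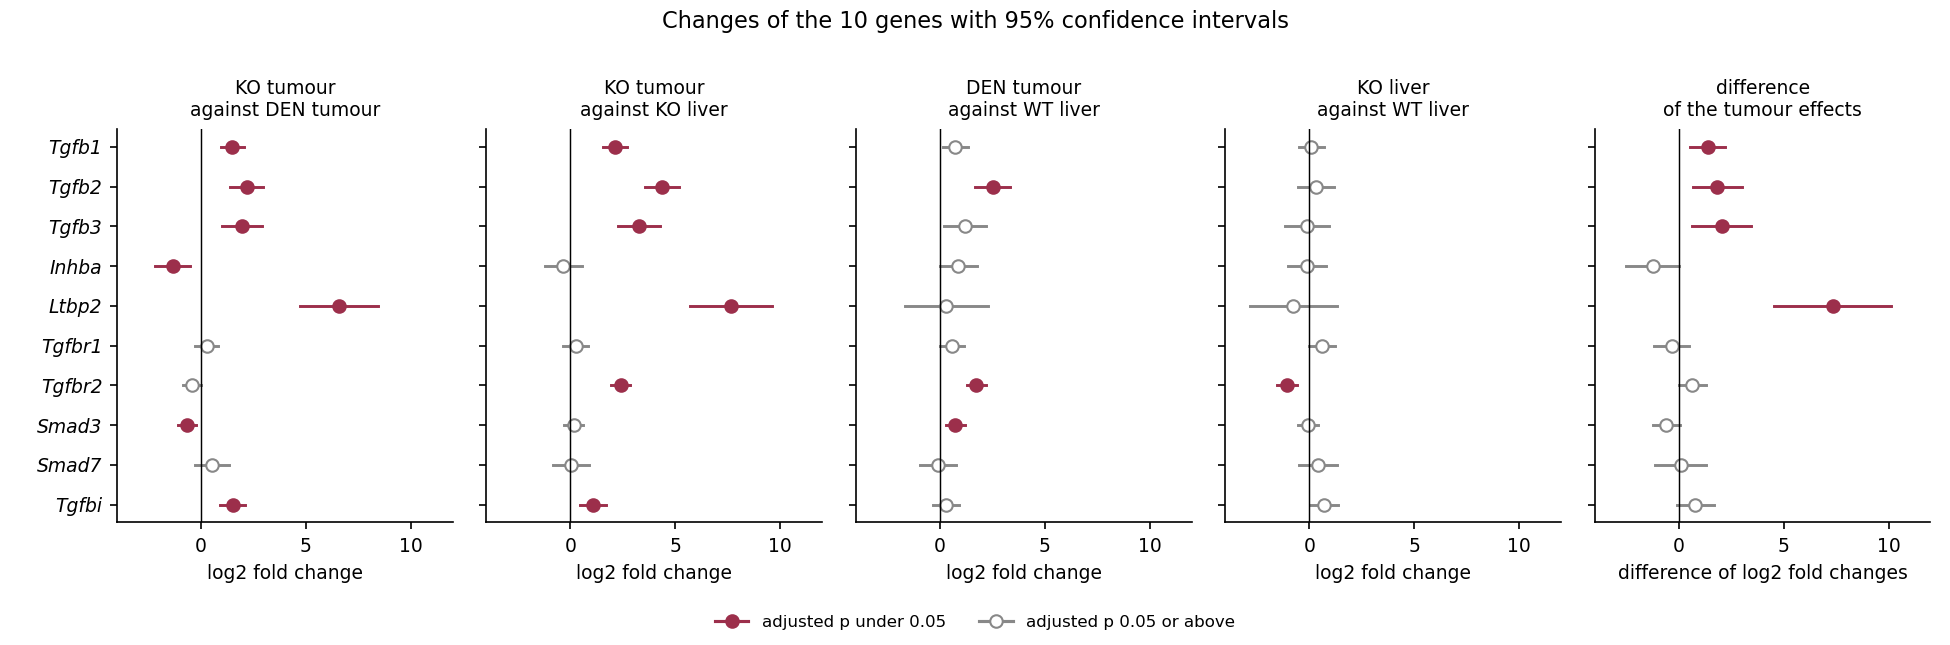
Log2 fold change of each gene (points) with its 95% confidence interval (lines) in 4 comparisons and, on the right, the KO tumour change over KO liver minus the DEN tumour change over WT liver. Filled points passed an adjusted p of 0.05. Ltbp2 stands at 6.58 and 7.64 in the comparisons of KO tumours, and KO against WT livers has 1 filled point, Tgfbr2.

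The tumours were also compared by how far they stood from livers of the same Trp53 genotype. No liver came from a mouse given DEN, so the change in DEN tumours also spans the treatment. The test took the change in KO tumours over KO livers minus the change in DEN tumours over WT livers. This difference was positive past the threshold for 4 of the 10 genes, where 30.9% of all genes were called and 12.7% were positive. It was 7.33 ± 1.32 for Ltbp2 (limma adjusted p = 0.00083), 1.84 ± 0.55 for Tgfb2 (limma adjusted p = 0.019) and 1.39 ± 0.39 for Tgfb1 (limma adjusted p = 0.014). For Tgfb3 it was 2.05 ± 0.67 (limma adjusted p = 0.030), a call that was lost without DEN mouse 3, KO liver 2 or 4, or WT liver 2 or 4 (limma adjusted p = 0.052 to 0.058). The second Tgfb2 probe gave 1.64 ± 0.82 (limma adjusted p = 0.14). For Tgfbr2 the difference of 0.64 ± 0.31 missed the threshold (limma adjusted p = 0.12) and passed without KO tumour mouse 4 (0.80, limma adjusted p = 0.028), and for Tgfbi it was 0.80 ± 0.41 (limma adjusted p = 0.15). Without the bright slide both passed (Tgfbr2 0.82, limma adjusted p = 0.030; Tgfbi 1.05, limma adjusted p = 0.049). With normexp background correction and quantile normalization Tgfbi passed as well (1.415, limma adjusted p = 0.021). When slide was a random block none of the 10 differences passed the threshold, Ltbp2 coming closest (7.11, limma adjusted p = 0.073).

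Tumours of the same mouse differed from each other. In KO tumour mouse 5, whose 2 tumours shared a slide, the median difference over the 10 genes was 0.26 and the largest 0.98, for Ltbp2 (4.69 and 3.71). In DEN tumour mouse 5, whose tumours were on different slides and days, the median was 0.74 and Ltbp2 stood at 0.38 in 1 tumour and at -2.64 in the other. In the same 2 DEN tumours Tgfbr2 was 3.01 and 4.50, and Smad7 -0.92 and -2.31. In DEN tumour mouse 4, also on different slides, the median was 0.50 and the largest difference 0.89, for Tgfbr2. A difference between tumours and 1 between slides cannot be told apart in the DEN mice.

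The other genes of the pathway were grouped by role in lists drawn from general knowledge, with the results on the series known. Between KO and DEN tumours, 2 of 17 other measured ligands rose in KO and 7 fell, and their median change was -0.85. Over all genes the shares were 19.9% and 37.5% and the median -0.33, so that the downward count of the ligands lies near the background. Inha, the inhibin alpha subunit that turns activins into inhibins, rose by 3.05 ± 0.26 (limma adjusted p = 2.9e-07). Bmp7, a bone morphogenetic protein, fell by 3.61 ± 0.38 (limma adjusted p = 2e-06), and it had risen by 2.59 ± 0.40 in DEN tumours over WT livers (limma adjusted p = 0.00027). Inhbc, an activin subunit made by hepatocytes, fell by 2.44 ± 0.37 in KO against DEN tumours (limma adjusted p = 5.6e-05) and by 1.74 ± 0.40 in DEN tumours against WT livers (limma adjusted p = 0.0048). Inhbb, the activin beta B subunit, rose in both kinds of tumour over livers of the same genotype, by 3.52 ± 0.59 in KO (limma adjusted p = 9.9e-05) and 4.99 ± 0.59 in DEN tumours (limma adjusted p = 2.2e-05).

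Among 13 other measured receptors and co-receptors, KO tumours had 2 higher and 3 lower than DEN tumours (median -0.024), fewer calls than the 57.4% of all genes. The Nodal co-receptor Tdgf1 rose by 3.09 ± 0.42 (limma adjusted p = 2e-05), and Hjv, the hemojuvelin co-receptor of hepatocytes, fell by 2.95 ± 0.59 (limma adjusted p = 0.00049). Tgfbr3, betaglycan, which presents Tgfb2 to the type II receptor, fell by 0.72 ± 0.28 in KO against DEN tumours (limma adjusted p = 0.033) and by 1.68 ± 0.29 in KO tumours against KO livers (limma adjusted p = 0.00014). Of 17 other Smads and regulators, KO tumours had 3 higher and 5 lower than DEN tumours (median -0.32), beside 19.9% and 37.5% of all genes. Pmepa1, a membrane protein that is induced by TGF-beta and sequesters Smads, rose by 4.16 ± 0.43 (limma adjusted p = 1.7e-06), and its other probe by 4.07. Skil, a nuclear repressor of Smads, rose by 0.72 ± 0.20 (limma adjusted p = 0.0064) and Zfyve9, which anchors Smads at the receptor, fell by 1.60 ± 0.27 (limma adjusted p = 0.00013).

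Among genes of latency, activation and extracellular antagonism, more passed the threshold upwards than downwards in KO tumours. Of 25 measured, 15 were higher and 3 lower in KO against DEN tumours (median 1.76), beside 19.9% and 37.5% of all genes. In KO tumours over KO livers 15 rose and 4 fell (median 1.53), beside 21.6% and 29.6% of all genes, and in DEN tumours over WT livers 5 rose (median 0.35), beside 10.6%. The integrin subunit Itgb6, part of an integrin of injured bile duct epithelium that activates latent TGF-beta, rose by 3.80 ± 0.52 in KO over DEN tumours (limma adjusted p = 2.1e-05), while its dimmer probe gave -1.21. Thbs1, thrombospondin, rose by 3.42 ± 0.51 in KO over DEN tumours (limma adjusted p = 4.3e-05) and by 3.35 ± 0.54 in DEN tumours over WT livers (limma adjusted p = 0.00037). Fbn2, a fibrillin of the microfibrils that hold latent complexes, rose by 2.97 ± 0.45 in KO over DEN tumours (limma adjusted p = 5.2e-05). Of the activin antagonists, Fstl3 rose by 3.1 ± 0.53 in KO over DEN tumours (limma adjusted p = 0.00014), where Fst, follistatin, fell by 2.76 ± 0.42 (limma adjusted p = 5e-05). Both rose in DEN tumours over WT livers, Fstl3 by 2.69 ± 0.56 (limma adjusted p = 0.0026) and Fst by 3.15 ± 0.44 (limma adjusted p = 0.00011). In KO tumours over KO livers Fstl3 rose by 5.85 ± 0.56 (limma adjusted p = 4.6e-07) and Fst differed by 0.41 ± 0.44 (limma adjusted p = 0.46).

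Of 26 genes that TGF-beta is known to induce, 15 were higher and 4 lower in KO against DEN tumours (median 1.05), beside 19.9% and 37.5% of all genes. In KO tumours over KO livers 19 rose and 2 fell (median 2.76), beside 21.6% and 29.6%, and in DEN tumours over WT livers 10 rose (median 1.07), beside 10.6%. Of these genes, Itgb6, Skil and Pmepa1 also stand in the lists above and Acta2 in that of stellate cells. Timp1, which inhibits metalloproteinases of the matrix, rose by 4.98 ± 0.57 in KO over DEN tumours (limma adjusted p = 4.1e-06) and by 8.18 ± 0.60 over KO livers (limma adjusted p = 4.7e-08). The cyclin-dependent kinase inhibitor Cdkn2b rose by 4.29 ± 0.42 in KO tumours over KO livers (limma adjusted p = 5.3e-07) and by 5.0 ± 0.42 in DEN tumours over WT livers (limma adjusted p = 8.4e-07). Among those that fell, Fn1, fibronectin, which hepatocytes also secrete, was lower by 1.18 on the log2 scale in KO than in DEN tumours (-1.18 ± 0.17, limma adjusted p = 3.2e-05). The summed signals of hepatocyte and stellate markers in KO and DEN tumours were given above, and the part of these cells in the counts was not tested.

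Of 7 genes that bone morphogenetic proteins induce in liver, 2 fell in KO against DEN tumours, 5 in KO tumours against KO livers and 1 in DEN tumours against WT livers, where 37.5%, 29.6% and 11.0% of all genes were lower. The first and the last of these counts lie near or below that background. Hamp, the iron hormone hepcidin of hepatocytes, fell by 5.43 ± 0.93 in KO tumours against KO livers (limma adjusted p = 0.00012) and fell by 5.64 ± 0.93 in DEN tumours against WT livers (limma adjusted p = 0.00044). Atoh8, a transcription factor that acts on Hamp, fell by 1.77 ± 0.41 in KO against DEN tumours (limma adjusted p = 0.0015). When slide was a random block the upward calls in DEN tumours over WT livers dropped from 10 to 2 among TGF-beta-induced genes and from 5 to 1 among those of latency, and those in KO over DEN tumours from 15 to 13 and from 15 to 11. Without the bright slide the last pair was 16 and 15.

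**Figure D4:**
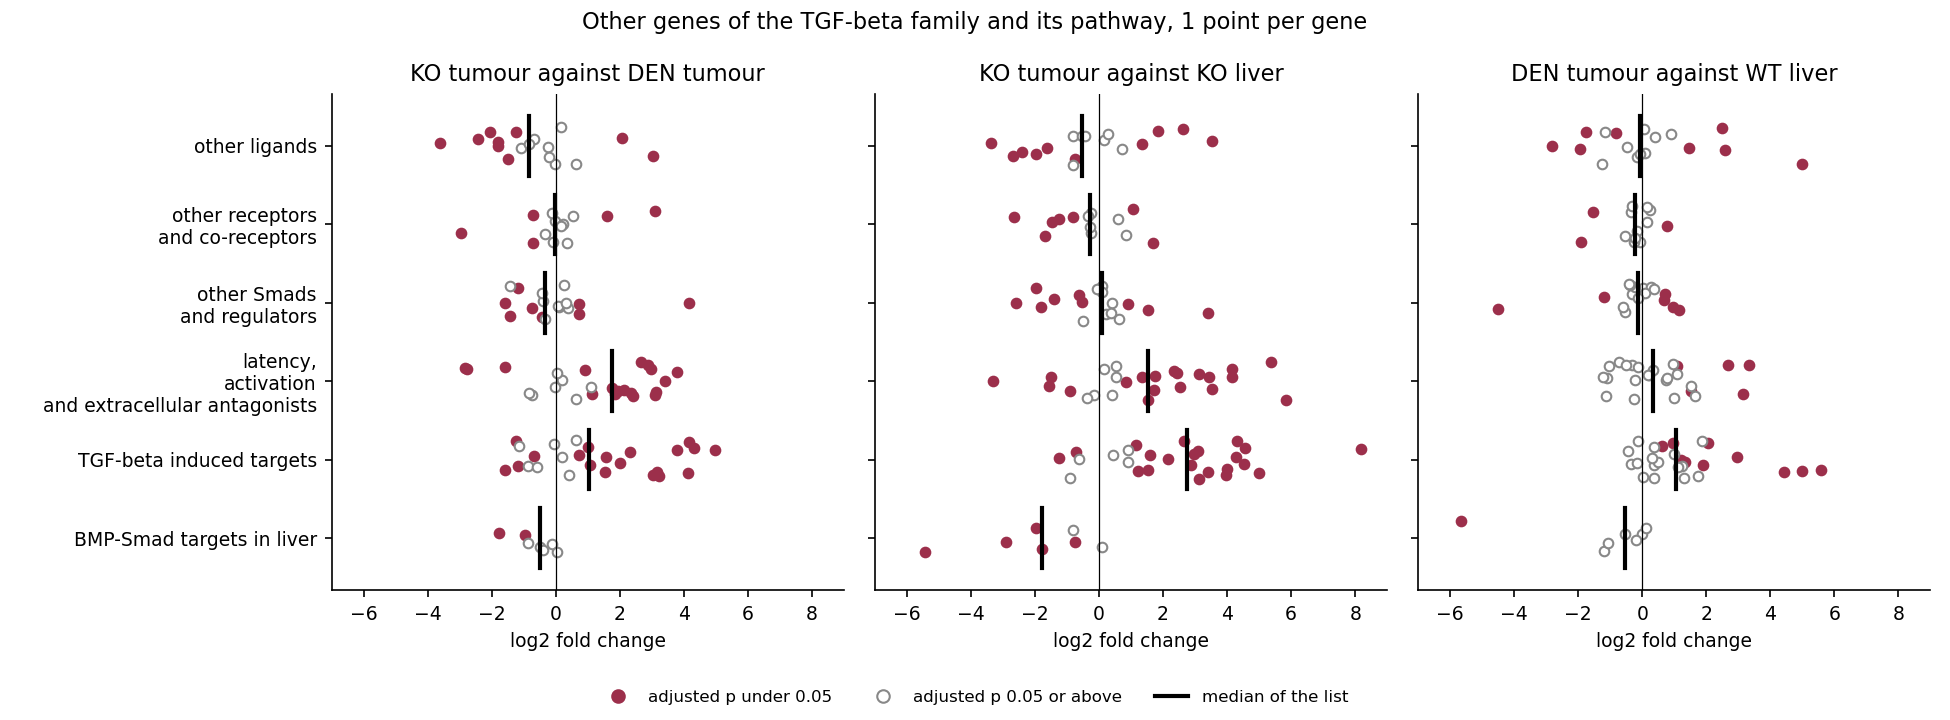
Log2 fold changes (x axis) of the other genes of the pathway, 1 point per gene, by list (y axis) in 3 comparisons. Filled points passed an adjusted p of 0.05, and black bars are list medians, such as 1.76 for latency, activation and antagonists in KO against DEN tumours and 2.76 for TGF-beta-induced genes in KO tumours against KO livers.

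The genes whose levels over the 18 mice ran closest to each member were found by Pearson correlation, as a description in which all points share the 4 groups. For Tgfb1 they were Gpr137b-ps, Emp3 and Atp7a (r from 0.979 to 0.981), for Tgfb2 Ddr1, Bicc1 and Foxj1 (0.964 to 0.980) and for Tgfb3 the matrix and muscle genes Flnc, Ccdc80 and Fbn2 (0.972 to 0.977). Ltbp2 ran closest to Gpm6b, Cyp1b1 and Fndc1 (0.978 to 0.984) and Tgfbr2 to Smo, Ajuba and Timeless (0.945 to 0.960). Tgfbi had Lrrc75a, Tbc1d10b and Kcnk6 (0.949 to 0.957). The remaining members had looser neighbours, with 0.874 for Inhba and Pusl1, 0.879 for Tgfbr1 and Fkbp9, 0.900 for Smad3 and Ovol2, and 0.816 for Smad7 and Igfbp7.

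In the promoters of 8 of the 10 genes held by RefSeq (build GRCm38.p6), the Smad binding element was searched, and the 250 bases before the starts of Tgfb2, Ltbp2 and Tgfbi are shown because they hold the most matches, a choice made after the matches were counted. Tgfb1, also highest in KO tumours, had none, and the promoters of Tgfb3 and Smad7 were not searched. The capitals mark CAGAC on either strand, the Smad binding element, which each of these stretches holds 2 times. The windows are chr1:186705990-186706239 (- strand) for Tgfb2, chr12:84876492-84876741 (- strand) for Ltbp2 and chr13:56609336-56609585 (+ strand) for Tgfbi.
Tgfb2: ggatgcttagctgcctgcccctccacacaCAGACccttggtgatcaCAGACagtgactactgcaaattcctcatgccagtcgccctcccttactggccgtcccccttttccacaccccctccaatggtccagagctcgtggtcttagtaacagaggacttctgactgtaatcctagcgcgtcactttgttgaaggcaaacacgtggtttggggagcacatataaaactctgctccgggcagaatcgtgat
Ltbp2: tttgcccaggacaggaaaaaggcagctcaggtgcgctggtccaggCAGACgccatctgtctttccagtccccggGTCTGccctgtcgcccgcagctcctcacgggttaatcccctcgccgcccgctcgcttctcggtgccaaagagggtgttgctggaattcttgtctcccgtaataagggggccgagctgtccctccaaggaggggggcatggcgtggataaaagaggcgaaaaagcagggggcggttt
Tgfbi: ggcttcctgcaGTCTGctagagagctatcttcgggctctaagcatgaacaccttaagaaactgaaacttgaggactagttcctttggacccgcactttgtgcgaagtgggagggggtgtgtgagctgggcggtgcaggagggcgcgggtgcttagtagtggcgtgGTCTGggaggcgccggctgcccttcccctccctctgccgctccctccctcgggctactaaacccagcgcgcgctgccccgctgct

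This motif is short and common. At least 1 CAGAC on either strand stood in 42.2% of 32851 promoters of the same length, and at least 2 in 11.7%. Tgfbr2 and 1 of the 2 Tgfbr1 promoters had 1 match, and those of Tgfb1, Smad3 and Inhba had none. The palindrome GTCTAGAC stood in 0.167% of promoters and in none of the 8 members searched, which leave out Smad7 and Tgfb3. The AP-1 site, TGACTCA or TGAGTCA, stood in 4.46% and in none of these 8. The box TATAAA, found in 12.4% of promoters, stood in those of Tgfb2 and Inhba. The GC box GGGCGG, found in 32.7%, stood 5 times in the promoter of Tgfb1. It stood 2 times each in those of Ltbp2, Smad3 and 1 of the 2 Tgfbr1 promoters, and 1 time in that of Tgfbi. These matches describe the sequence and say nothing of binding.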

How the data were processed

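Total RNA of the 21 tissues was labelled with Cy3 and hybridised to single-colour Agilent mouse arrays. Per the file headers, the authors used Feature Extraction 10.7.3.1, which wrote the deposited intensity of each spot after subtracting background, with flags for spots well above background and for outliers. The authors' deposited value table, in log2 units, served as an alternative. Each of its columns matched the array of that sample once the 75th percentile was subtracted and each probe centred.

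Outlier spots were removed (70 to 397 per array), spots of a probe averaged as log2, and the 75th percentile of 39429 non-control probes subtracted. Probes well above background on at least 4 arrays were kept, and the brightest stood for a gene. RefSeq tables named probes by main accession (26761), another accession (102), symbol (3746) or synonym (623), and 8197 kept the name in the files. Titles were read as mouse and tumour numbers, and tumours of 1 mouse averaged. limma 3.58.1 in R 4.3.3 fitted 4 group means over 18 mice (prior degrees of freedom 2.62). The fit was tested on simulated data. A bound ("at least N-fold") compares a group's mean with the lowest signal well above background on each dim array. The number of arrays limits precision.

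Members and lists were chosen with earlier results of these data known. Named genes were all members, Trp53, up to 3 risen and 3 fallen genes of each list by adjusted p in each comparison, and the 3 genes most correlated with each member. Some genes that this rule or the marker lists name are not reported here. Marker lists of endothelial, T and NK, neutrophil, platelet and mesothelial cells were summed too. Summed signals per mouse in KO and DEN tumours were 8.92 to 15.4 and 8.85 to 19.1 for endothelial, 8.23 to 36.3 and 24.4 to 103 for T and NK, 3.89 to 40.0 and 10.6 to 40.5 for neutrophil, 6.06 to 27.1 and 1.89 to 9.48 for platelet, and 1.18 to 37.2 and 0.0951 to 0.471 for mesothelial markers. Sums rest on the brightest markers: in KO against DEN tumours, T and NK markers had 4 higher and 3 lower (median log2 change 1.04) and platelet markers 1 higher and 3 lower (median -1.13), so that median and sum differ in direction. Endothelial markers had 1 higher and 3 lower (median -0.15), neutrophil markers 1 lower (median -0.50) and mesothelial markers 2 higher (median 1.26). Among all genes 19.9% were higher and 37.5% lower in KO against DEN tumours. Alternatives were other scalings, filters, probe rules, blocks for mouse, slide and scan day, and leaving out each mouse.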

Additional observations from a re-analysis of the deposited data

Results flagged for a closer look

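For 4 genes the change in KO tumours over KO livers differed from that in DEN tumours over WT livers by limma's test. The difference was 1.39 on the log2 scale for Tgfb1 (higher than the mean KO liver in 5 of 5 KO tumour mice), 1.84 for Tgfb2, 2.05 for Tgfb3 and 7.33 for Ltbp2, with the adjusted p-values given above. None of the 4 passed the threshold when slide was a random block. In 2 of 44 groups of mice tested, 1 mouse stood far from the others by Dixon's criterion, about the share that chance gives. These were KO liver 3 for Tgfb1 (-3.49, the lowest) and KO liver 4 for Tgfbr1 (1.47, the highest).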

How the results depend on the processing

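No paired analysis was possible because the animal numbers in the titles differ between groups and tie no tumour to a liver. Over single mice left out, the number of genes past the threshold was 7 to 8 of 10 in KO against DEN tumours, 6 in KO tumours against KO livers, 2 to 5 in DEN tumours against WT livers (main value 3), 1 in KO against WT livers and 3 to 5 for the difference of the tumour effects. With slide as a random block, over single arrays and without a term for mouse, it was 0 in DEN tumours against WT livers. It was also 0 in KO against WT livers and 0 for the difference. Over all genes the same block gave 6661 calls in place of 12032 in KO tumours against KO livers, 422 in place of 5071 in DEN tumours against WT livers, 11 in place of 1999 in KO against WT livers and 810 in place of 7281 for the difference. With tumours as samples and mouse as a block, KO against WT livers had 0 of the 10 genes and 1152 genes in all, and without single livers 656 to 1094 for the 6 of 8 that moved it most. Without the bright slide, 5 of the 10 genes passed in DEN tumours against WT livers, and KO against WT livers had 3191 calls over all genes. Quantile normalization after normexp brought the share of lower calls from 78.4% to 65.5% in KO against WT livers and from 59.0% to 48.3% for the difference.

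Signs changed for values that had not passed the threshold. With normexp and quantile normalization Smad7 was -0.069 in KO tumours against KO livers and -0.018 for the difference, and Tgfb3 0.076 in KO against WT livers. With the mean of a gene's probes Tgfbr1 was 0.41 for the difference. In KO tumours against KO livers, a scan day block, scan day 1 alone and leaving out the bright slide all compare the same arrays. They therefore give the same estimate by design, 0.19 for Inhba and -0.59 for Smad7, and are not separate checks. Without the bright slide Smad7 was -0.064 in KO against DEN tumours and -0.50 for the difference. Over single mice left out, Ltbp2 ran from -0.45 to 1.13 and Smad7 from -0.32 to 0.17 in DEN tumours against WT livers, Smad7 from -0.31 to 0.26 in KO tumours against KO livers and from -0.21 to 0.35 for the difference. In KO against WT livers Inhba ran from -0.39 to 0.12, Tgfb3 from -0.31 to 0.0093 and Smad3 from -0.12 to 0.016. The causes were not tested. Outside mice left out, 499 of the values kept direction and side of the threshold, 19 lost a call and 10 gained one. The mean of probes called Tgfbr1 (0.70) and Tgfbr2 (-0.87) in KO against DEN tumours and not Smad3 (-0.30). For Tgfbr1 this mean includes probes near background. In DEN tumours against WT livers the mean of probes did not call Smad3 either (0.25).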
